A study of Mus musculus with 7 samples.

Results

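The genes described here are 37 genes of heart and striated muscle, taken by symbol from a table of read counts of whole mouse lung. They encode sarcomere proteins, calcium-handling proteins, muscle enzymes, natriuretic peptides and cardiac transcription factors. Of the 37 symbols, 36 were found among the 28828 entries of the table, and 34 of these passed the filter on low counts that left 19832 genes for testing. Myl2, the ventricular regulatory light chain, was not analysed here. Nppb and Nkx2-5 had too few counts to be tested.

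The study compared lung RNA of C57BL/6 mice carrying a knockout of Scgb3a2, a secretoglobin gene of airway club cells, with that of wild type C57BL/6 mice. There were 4 wild type libraries (WT2, WT3, WT4 and WT6) and 3 knockout libraries (KO3, KO4 and KO5), each called by its genotype and title number. Age, sex, litter, date and batch are not in the labels, nor are the cells in which the gene is disrupted. Nor is it stated that every library is a separate mouse, and the p-values measure the spread of these libraries, which may be technical. Totals ranged from 13071262 to 16480006 counts. Scgb3a2 had 253, 266, 195 and 293 CPM (counts scaled to library size, with edgeR's TMM correction for composition) in the wild type libraries and 1.28, 1.21 and 2.68 CPM in the knockout libraries (log2 fold change -7.20 ± 0.27 SE, edgeR adjusted p = 8.06e-07). Of the lung markers, Sftpc, the surfactant protein C gene of alveolar type 2 cells, had 5897 to 8771 CPM.

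In mice, heart muscle is not confined to the heart: a sleeve of atrial-type cardiomyocytes runs from the left atrium along the pulmonary veins into the lung. These cells contract with the alpha heavy chain Myh6 and the atrial light chains Myl7 and Myl4, while ventricular muscle uses the light chains Myl2 and Myl3. In heart muscle, calcium leaves its store through the channel Ryr2 and is pumped back by Atp2a2, which the small membrane proteins Pln and, mainly in atria, Sln hold back. The labels do not say how the lungs were cut from the heart. In whole lung RNA, fewer such cells and less RNA per cell cannot be told apart.

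The stretches before the transcription starts of Myl7, Myh6, Myl3 and Nppa are shown because the results below turn on how these 4 genes compare with each other. Each is 250 bases long, from RefSeq on GRCm38.p6, and ends at the base before the start. For each gene 1 RefSeq start was used, and other starts may exist. The Myh6 and Myl3 stretches lie inside the spans of these genes in the GENCODE annotation. Capitals mark matches, on either strand, to the CArG box of serum response factor, to the MEF2 element, to CATTCC (known as the M-CAT element), to the GATA-type sites AGATAA and also TGATAA, and to TATAAA, which is one form of the TATA box. None of the matches in these 4 stretches overlap each other.
Myl7, chr11:5898783-5899032, minus strand: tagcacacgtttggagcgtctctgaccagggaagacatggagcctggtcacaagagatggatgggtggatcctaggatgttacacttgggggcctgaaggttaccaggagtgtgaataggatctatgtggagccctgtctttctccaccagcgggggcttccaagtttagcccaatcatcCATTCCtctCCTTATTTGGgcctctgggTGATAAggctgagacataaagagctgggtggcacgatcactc
Myh6, chr14:54966608-54966857, minus strand: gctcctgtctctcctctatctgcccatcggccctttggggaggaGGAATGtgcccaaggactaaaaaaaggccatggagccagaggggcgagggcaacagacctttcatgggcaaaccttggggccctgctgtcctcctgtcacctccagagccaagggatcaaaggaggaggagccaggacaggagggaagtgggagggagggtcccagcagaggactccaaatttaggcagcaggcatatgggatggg
Myl3, chr9:110763428-110763677, plus strand: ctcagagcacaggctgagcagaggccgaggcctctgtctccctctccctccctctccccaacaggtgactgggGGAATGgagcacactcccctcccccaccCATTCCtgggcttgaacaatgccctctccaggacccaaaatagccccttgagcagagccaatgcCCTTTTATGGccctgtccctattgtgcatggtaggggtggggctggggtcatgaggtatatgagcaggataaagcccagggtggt
Nppa, chr4:148000472-148000721, plus strand: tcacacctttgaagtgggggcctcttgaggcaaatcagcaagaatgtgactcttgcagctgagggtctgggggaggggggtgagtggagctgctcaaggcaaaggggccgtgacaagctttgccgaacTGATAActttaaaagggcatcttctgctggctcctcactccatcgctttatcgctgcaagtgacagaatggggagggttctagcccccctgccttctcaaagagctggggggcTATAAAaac
The Myl7 stretch held CATTCC 70 to 65 bases, a CArG box 61 to 52 bases and TGATAA 42 to 37 bases before the start. In Myl3 a CArG box lay 85 to 76 bases before the start, with CATTCC matches on both strands farther out. Nppa had TGATAA and TATAAA, and Myh6 had a single match, to CATTCC on the opposite strand. The RefSeq table held 37 promoters for 30 of the 37 genes (not Myom2, Tcap, Sln, Atp2a2, Cox6a2, Trdn or Tbx5). Of those 37 stretches, 6 held a CArG box (16.2%, against 1.47% of all 32851 promoters), in Actc1, Ldb3, Myl3, Myl7 and Myom1. CATTCC was found in 9 of the 37 (24.3% against 12.6%), AGATAA in 7 (18.9% against 9.99%), TGATAA in 5 (13.5% against 7.94%), TATAAA in 5 (13.5% against 12.4%) and the MEF2 element in 3 (8.11% against 1.69%). A match is a string of letters and not a shown binding site, and some genes gave more than 1 stretch.

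Heart muscle transcripts were present in every library, as a small part of the lung RNA. The 36 genes together took 0.221%, 0.137%, 0.200% and 0.298% of all counts in WT2, WT3, WT4 and WT6, and 0.146%, 0.133% and 0.175% in KO3, KO4 and KO5. These shares include genes that other cells also express, among them Atp2a2 (266 to 447 CPM) and Tbx5 (47.4 to 90.4 CPM). WT3 lay among the knockout libraries and the other wild type libraries lay above all of them. WT6 was the highest of the 7 libraries for 24 of the 34 tested genes. KO4 was the lowest for 15 and KO5 for 10, and WT3 lay below the highest knockout library for 28 of them.

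**Figure D1:**
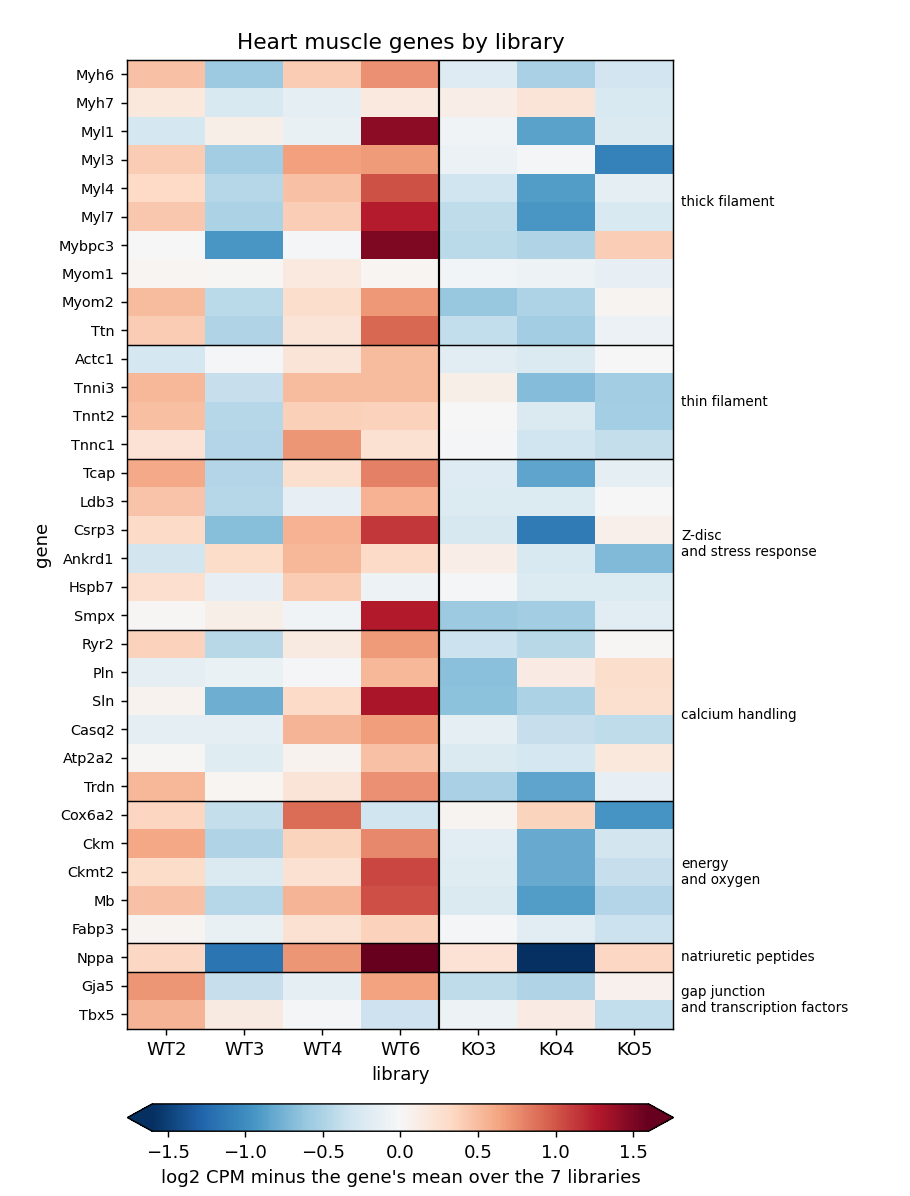
Heart muscle genes (rows, grouped by role) in the 7 libraries (columns). Colour gives log2 CPM minus the gene's mean over the 7 libraries, red above and blue below. WT6 is the highest library for 24 of the 34 genes, and WT3 resembles the knockout libraries in most rows.

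No heart muscle gene passed the test between genotypes. Among the 34 tested genes 0 rose and 0 fell at an adjusted p under 0.05 in edgeR's quasi-likelihood test, where 0.0353% of all genes were called and 0.0101% were called lower. DESeq2 also called 0 of them. At an unadjusted p under 0.05, 14 of the 34 lay lower and 0 higher in knockout lung, while 2.87% of all genes passed that level and 1.05% passed it and lay lower. The count at that level, in either direction, changed with the libraries and the fit. It was 22 without WT3, 5 without WT6, 2 without KO4, and 9 or 10 when any other single library was left out. It was 3 among the 5 libraries other than WT6 and KO5, and 17 on all 7 libraries with a term for that pair. DESeq2 gave 17 of 36 genes, a replicate block (a term for the title number) 15, and other scalings or no filter 11 to 14. Shares of all genes at this level are not given for these other fits, which differ in libraries and degrees of freedom. The log2 fold change was negative for 33 of 34 genes (52.0% of all genes tested), with a median of -0.61 against -0.0068 over all genes. In 3 genes, Myom1, Smpx and Trdn, all knockout values lay under all wild type values (against 1.61% of all genes), and 0 genes had the opposite order (2.11% of all genes). These counts are not independent, since the genes vary together from library to library. The smallest adjusted p of any of them was 0.9998 in edgeR and 0.126 in DESeq2 (Mb).

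The size of the difference depended on which libraries were compared. When 1 library was left out at a time, the median ranged from -0.81 (without WT3) to -0.43 (without WT6). Among the 5 libraries other than WT6 and KO5, which stand apart from the rest in other gene groups (the mesothelium markers summed to 229 and 223 CPM there, against 106 to 140 CPM elsewhere, and the alveolar and airway epithelium markers to 21505 and 18367 CPM, against 25817 to 30609 CPM), it was -0.42. With a term for this pair in the fit it was -0.63. The direction was the same in each of these fits, and none of the 34 genes passed in any of them. The part of these markers in the result was not tested.

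**Figure D2:**
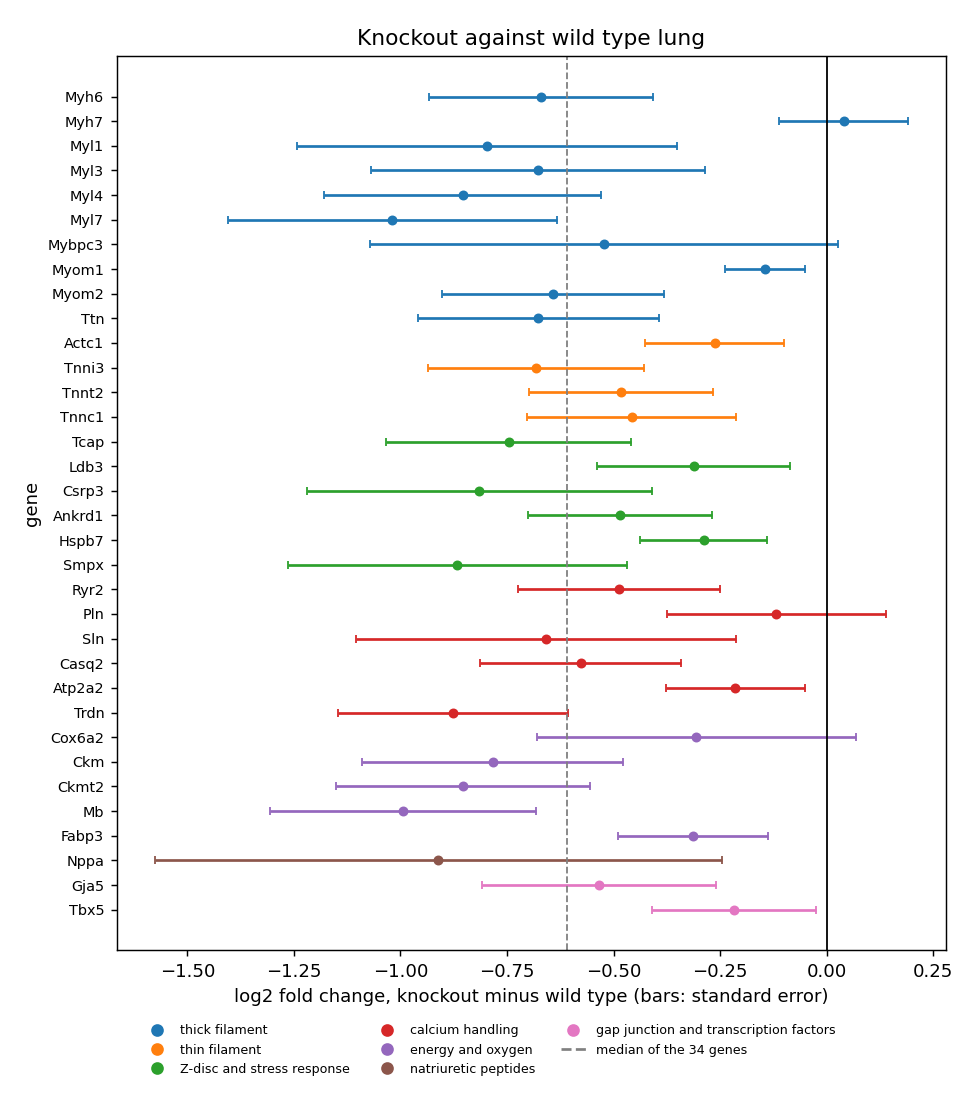
Log2 fold change of knockout minus wild type lung (horizontal axis) for the 34 tested heart muscle genes, coloured by role. Points are estimates from edgeR and bars are standard errors, and the dashed line is the median of -0.61. Myh7 is the 1 gene with an estimate above 0, at 0.04.

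Per length, Myl7 and Myh6 of the thick filament stood at 49.7 and 48.1 CPM per kb over the 7 libraries, next after Atp2a2 (73.4) and Actc1. Myh6 (chromosome 14, 54941921 to 54966927, minus strand, GRCm38), the alpha myosin heavy chain, had 384, 186, 368 and 461 CPM in wild type lung (in the order WT2, WT3, WT4, WT6, kept below) and 241, 194 and 225 CPM in knockout lung (KO3, KO4, KO5). WT3 was the lowest of all 7, so that the genotypes overlapped (log2 fold change -0.67 ± 0.26 SE, edgeR adjusted p = 0.9998).

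Myl7 (minus strand, chromosome 11, 5896637 to 5898782), the atrial regulatory light chain, had 35.01, 18.4, 34.1 and 62.2 CPM in wild type and 19.7, 13.7 and 22.1 CPM in knockout lung. Its log2 fold change of -1.02 ± 0.39 depended on single libraries: it was -0.66 without WT6 and -1.25 without WT3. Myl4, the atrial essential light chain (chromosome 11, 104550663 to 104595753), had 34.5, 20.2, 38.3 and 56.2 CPM against 22.1, 14.9 and 24.98 CPM (-0.85 ± 0.32). In both light chains WT6 was highest, WT3 lay inside the knockout range and KO4 was lowest. Titin (Ttn), the giant spring of the sarcomere, had 728, 395, 635 and 1040 CPM against 418, 376 and 519 CPM, again with WT3 inside the knockout range.

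Myl3, the ventricular essential light chain, had few counts. They were 27, 13, 26 and 28 in wild type and 17, 19 and 8 in knockout libraries, which is 0.83 to 1.97 CPM and 0.579 to 1.21 CPM. Its log2 fold change was -0.68 ± 0.39, with overlapping groups, and it was -0.41 without KO5 and -0.89 without WT3. Myl1, an essential light chain of skeletal and embryonic muscle, ranged from 0.891 to 1.72 CPM in 6 libraries and reached 4.36 CPM in WT6. Myh7, the beta heavy chain, had 24.2, 18.1, 19.5 and 23.9 CPM in wild type and 23.0, 24.9 and 18.1 CPM in knockout lung. Its highest library was KO4, the lowest for both atrial light chains, and its log2 fold change of 0.04 ± 0.15 had both signs when single libraries were left out (-0.06 to 0.17). The M-band proteins Myom1 and Myom2 and the myosin-binding protein Mybpc3 had log2 fold changes of -0.14, -0.64 and -0.52.

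**Figure D3:**
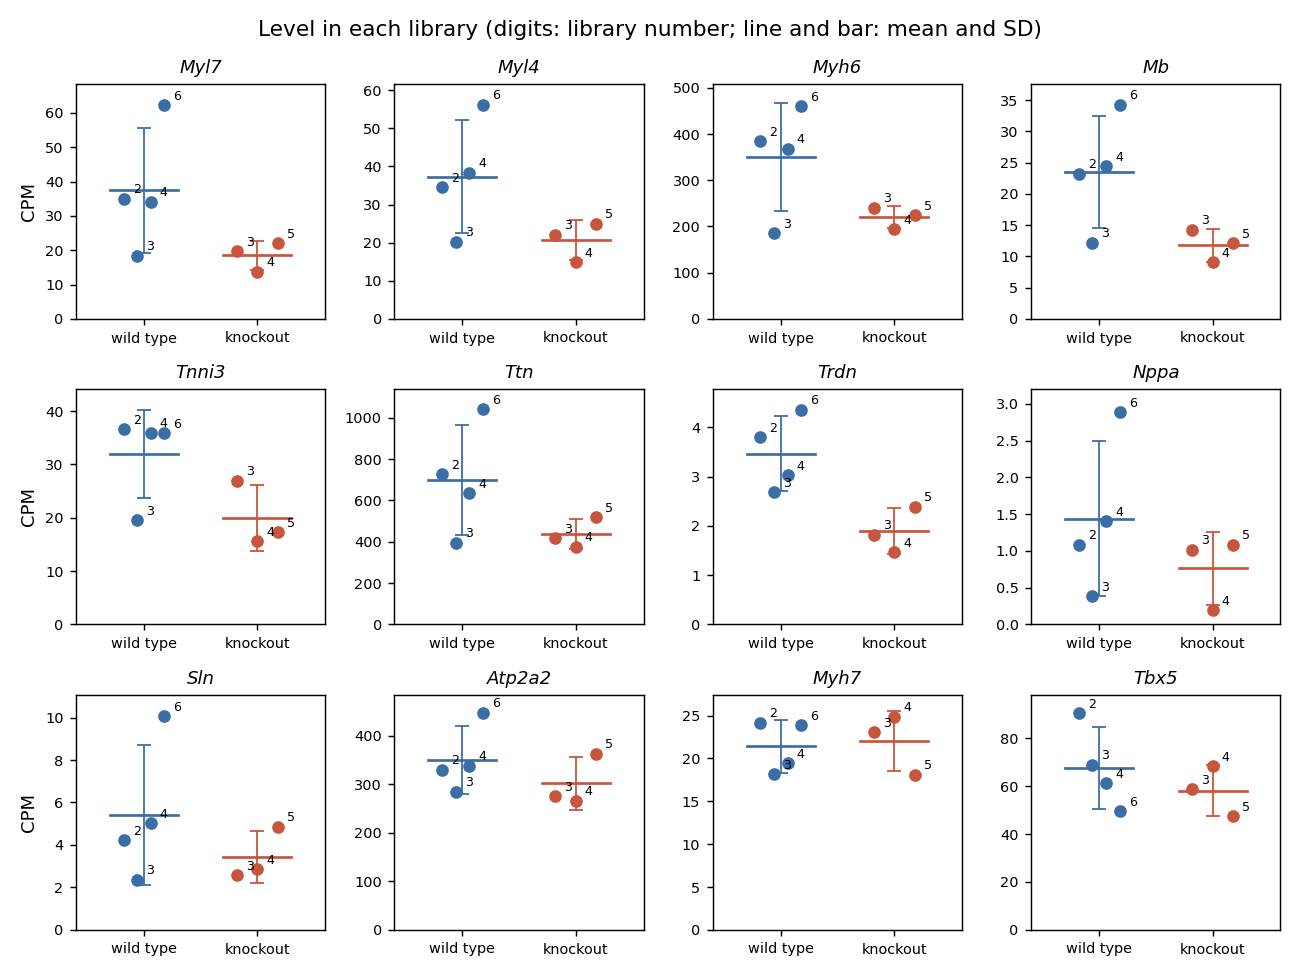
CPM (vertical axes, from 0) of 12 heart muscle genes in each library, blue for wild type and red for knockout, with the library number beside each point. Lines and bars are means and SD. WT3 is the lowest wild type library for each gene shown except Tbx5, where WT6 is lowest. Myh7 has its highest value in KO4.

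Partner genes were compared within each library, as a ratio of counts that does not depend on how libraries are scaled. Of these pairs, only the light chains set an atrial gene against a ventricular one. Myh6 over Myh7 sets the alpha against the beta heavy chain, and Nppa over Nppb compares natriuretic peptide genes. Neither of these is read here as atrium against ventricle. Per kilobase of transcript, Myl7 stood at 59.3, 31.2, 57.8 and 105 CPM per kb in wild type and 33.3, 23.2 and 37.4 in knockout lung. Myl3 stood at 1.74, 0.886, 2.05 and 2.10 and at 1.23, 1.29 and 0.618 CPM per kb. The per-length level of Myl7 was thus 17.97 to 60.5 times that of Myl3, above it in 7 of 7 libraries. For Myl4 over Myl3 the per-length ratio was 20.7, 23.4, 19.4 and 27.9 in wild type and 18.6, 11.9 and 40.4 in knockout libraries. With lengths of all exons together, an alternative chosen after seeing the data, the median ratio of Myl7 to Myl3 over the libraries was 74.5 in place of 34.2.

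No difference between genotypes passed the test in any of the 3 ratios. Log2 of Myl4 over Myl3 was 4.51 ± 0.23 (SD, n = 4) in wild type and 4.39 ± 0.89 (SD, n = 3) in knockout libraries, an exact two-sided permutation p of 0.771 (adjusted p = 0.943 over the 3 ratios). Log2 of Myh6 over Myh7 was 3.96 ± 0.42 and 3.33 ± 0.34, with WT3 (3.35) between KO3 (3.38) and KO4 (2.96), and an exact permutation p of 0.114 (adjusted p = 0.343). Nppa over Nppb gave an exact permutation p of 0.943 and rests on 0 to 3 counts of Nppb per library. The smallest p that 4 against 3 libraries allow is 0.0286. Myh6 and Myh7 lie 3.76 kb apart on chromosome 14, on the same strand.

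**Figure D4:**
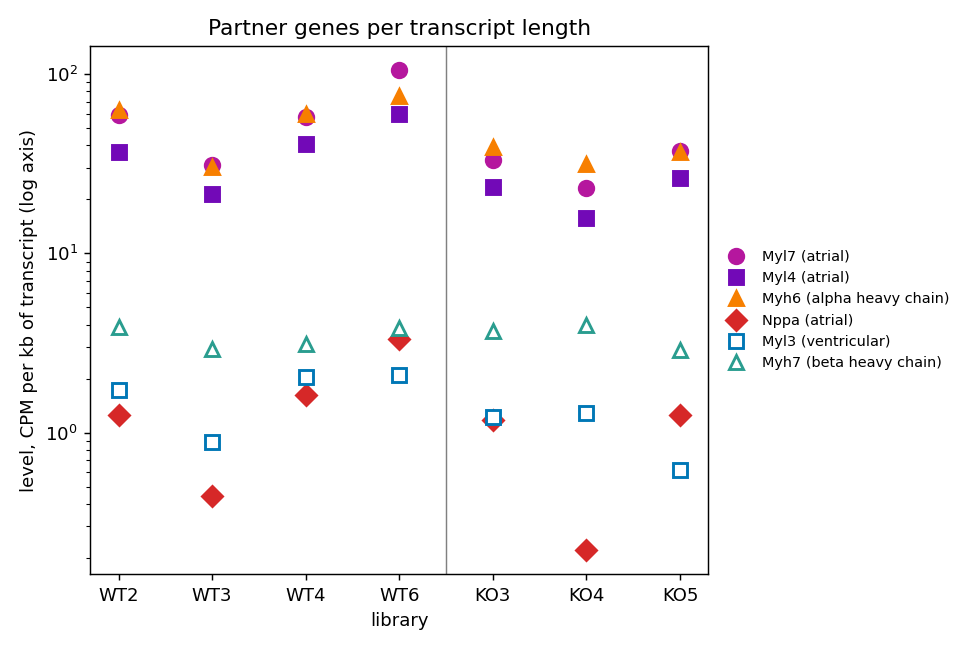
Levels in CPM per kb of the longest principal transcript (log axis) for the atrial genes Myl7, Myl4 and Nppa, the ventricular light chain Myl3 and the alpha and beta heavy chains Myh6 and Myh7, in each library. Myl7, Myl4 and Myh6 lie above Myl3 and Myh7 in every library, and Nppa lies below Myl3 in 5 of the 7.

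Nppa, the precursor of atrial natriuretic peptide and a leading product of atrial muscle, was scarce. Its counts were 18, 6, 19 and 41 in WT2, WT3, WT4 and WT6 and 15, 3 and 15 in KO3, KO4 and KO5. That is 0.383 to 2.88 CPM in wild type and 0.191 to 1.09 CPM in knockout lung, with overlapping groups (log2 fold change -0.91 ± 0.67). Without WT6 it was -0.33 and without KO4 -0.44, but -1.23 without WT3 and -1.24 without KO5. Per length its level was 0.00952 to 0.0352 of that of Myl7 in the same library. Nppb, the precursor of B-type natriuretic peptide, lies 13.5 kb from Nppa on chromosome 4. It had 5 counts over the 4 wild type libraries (0.0832 CPM, exact Poisson 95% interval 0.027 to 0.194) and 3 over the knockout libraries (0.0676 CPM, 0.0139 to 0.197). Counting intervals cover counting error only.

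The thin filament genes lay between 5.36 and 147 CPM in all libraries. Tnni3, the cardiac inhibitory troponin, had 36.6, 19.5, 36.0 and 35.9 CPM in wild type and 27.0, 15.6 and 17.2 CPM in knockout lung (log2 fold change -0.68 ± 0.25, edgeR adjusted p = 0.9998). Tnnt2 and Tnnc1, the cardiac tropomyosin-binding and calcium-binding troponins, had log2 fold changes of -0.48 and -0.46. Actc1, cardiac actin, had one of the highest levels per length (76.5 CPM per kb in wild type and 63.7 in knockout lung) and a smaller difference (-0.26).

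Z-disc and stress genes differed in how closely they kept to this order. The titin cap Tcap had 22.0, 10.5, 17.2 and 25.4 CPM in wild type and 12.6, 8.08 and 12.96 CPM in knockout lung (-0.75 ± 0.29), with WT3 inside the knockout range. Csrp3, the muscle LIM protein, and Smpx, a small striated muscle protein, had log2 fold changes of -0.81 and -0.87. Ldb3 and the small heat shock protein Hspb7 stood at -0.31 and -0.29. Ankrd1, a stress-induced titin partner, was lowest in KO5 (17.1 CPM) and had its lowest wild type value in WT2 (22.8 CPM).

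Of the calcium-handling genes, Trdn had the smallest p of all 34. This gene of triadin, which anchors the calcium store's release channel, had 3.80, 2.68, 3.03 and 4.36 CPM in wild type and 1.82, 1.46 and 2.39 CPM in knockout lung. The groups did not overlap (log2 fold change -0.88 ± 0.27, unadjusted p = 0.00743, edgeR adjusted p = 0.9998). Ryr2 and the calcium-binding protein Casq2 had log2 fold changes of -0.49 and -0.58.

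Sln, sarcolipin, had 4.22, 2.36, 5.03 and 10.1 CPM against 2.57, 2.86 and 4.85 CPM (-0.66 ± 0.45), with WT3 lowest. Without WT6 its log2 fold change was -0.17, but it was -0.91 without WT3 and -0.98 without KO5. Pln, phospholamban, had 5.06, 5.17, 5.48 and 8.09 CPM against 3.51, 6.11 and 6.81 CPM. Its log2 fold change of -0.12 ± 0.26 changed sign when WT6 or KO3 was left out (0.07 and 0.12). Per length, Sln over Pln ranged from 0.809 in WT3 to 2.20 in WT6. Their target Atp2a2, a pump that most cell types also carry, had 330, 284, 338 and 447 CPM against 275, 266 and 363 CPM (-0.21 ± 0.16). Its log2 fold change was -0.07 without WT6, -0.13 without KO4 and -0.37 without KO5. KO5 lay above 3 of the 4 wild type libraries.

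Genes of energy supply and oxygen binding had the lowest median of the larger groups, -0.78 over 5 genes. Myoglobin (Mb), the oxygen store of heart and skeletal muscle, had 23.2, 12.2, 24.4 and 34.2 CPM in wild type and 14.3, 9.04 and 12.1 CPM in knockout lung (-0.99 ± 0.31, edgeR adjusted p = 0.9998). Ckmt2, the creatine kinase of muscle mitochondria, had 5.60, 3.89, 5.40 and 9.56 CPM against 3.99, 2.61 and 3.55 CPM (-0.85 ± 0.30), and Ckm, its cytosolic relative, had 4.76, 2.23, 3.997 and 5.27 CPM against 2.77, 1.78 and 2.53 CPM (-0.78 ± 0.31). Without WT6 the value of Ckmt2 was -0.55, and without WT3 it was -1.02. In these 3 genes, WT3 was the wild type library that entered the knockout range. The fatty acid carrier Fabp3 stood at -0.31. Cox6a2, the heart and skeletal muscle form of a respiratory chain subunit, stood at -0.31 too, but with its highest value in WT4 (17.7 CPM) and 7.60 CPM in WT6.

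Among the regulators, Nkx2-5, a transcription factor that marks cardiomyocytes, had 6, 0, 5 and 6 counts in wild type and 1, 0 and 1 in knockout libraries. Over each group that is 0.283 CPM (exact Poisson 95% interval 0.165 to 0.453) and 0.045 CPM (0.00545 to 0.163), with WT3 at 0, which allows a level of up to 0.192 CPM (3 counts). The intervals pool the libraries of a group and leave out the spread between them, and the genotype difference of Nkx2-5 was not tested. The factor Tbx5, which is also expressed in lung mesenchyme, had 90.4, 69.0, 61.2 and 49.5 CPM against 58.7, 68.3 and 47.4 CPM, so that WT6, the highest library of most heart genes, was the lowest wild type library here. Gja5, the connexin of atrial muscle and arterial endothelium, had 24.0 and 22.9 CPM in WT2 and WT6 and 10.6 to 15.4 CPM elsewhere.

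Across the 7 libraries most of these genes varied together. Each gene's log2 CPM was set against the mean of the other 33, a description with no test, since 7 libraries share depth and composition effects. The median Pearson r was 0.84 over the 34 genes, and 11 of them exceeded 0.9. The highest were Myl7 (0.99), Mb (0.99) and Myl4 (0.98), with Ttn, Myh6, Ckmt2, Ckm, Tcap, Csrp3, Ryr2 and Myom2 also above 0.9. The lowest were Tbx5 (-0.16), Cox6a2 (0.13), Myh7 (0.22), Ankrd1 (0.37) and Pln (0.38). Among 17819 other genes with a mean of at least 1 CPM, the median r with the mean of all 34 was -0.0043 and 62 genes (0.348%) exceeded 0.9.

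The 12 of those genes with the highest r were Hdc, Actn2, Gm7591, Nr4a2, Gm44822, Sptlc2, Rbp4, Phlda3, Plekha4, Zscan18, Cldn5 and Firre (0.95 to 0.97). Actn2, the alpha-actinin of cardiac and skeletal Z-discs, is the 1 heart muscle gene among them, with 7.28 CPM in WT3 and 17.8 CPM in WT6. Sptlc2 shows that a high r need not be a large difference, with 199 to 221 CPM over the 7 libraries.

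A list of 30 further cardiac genes, 29 of them tested, gave similar values. None rose or fell at the adjusted threshold. Negative values were found in 28 of 29 (52.0% of all genes tested), and the median log2 fold change was -0.41. At an unadjusted p under 0.05 in edgeR's test, 5 of the 29 lay lower (1.05% of all genes). In 0 of the 29 did all knockout values lie on one side of all wild type values, which is near the shares over all genes (1.61% lower and 2.11% higher). Their mean log2 CPM overlapped between genotypes, with WT3 at 2.47 and KO5 at 2.71. Their summed CPM did not overlap, at 533 to 604 in wild type and 484 to 516 in knockout libraries. In that sum Des (147 to 199 CPM) and Cacna1c (155 to 182 CPM) weigh most. Xirp2, which links actin to the intercalated disc, had 8.80, 3.96, 8.59 and 10.1 CPM in wild type and 3.38, 3.82 and 4.71 CPM in knockout lung (-0.98 ± 0.29), with WT3 inside the knockout range. Jph2, which couples surface and store membranes, and the anchoring protein Nrap had values of -0.46 and -0.54. The median r of this list with the heart muscle genes was 0.77 over 28 genes, with 4 above 0.9. The lowest were Nexn (-0.30) and Des (-0.17). Of further atrial genes, 4 were tested and 3 had negative values (median -0.41, 0 called). Among them Mybphl, a myosin-binding protein of atria, had 6.57, 2.81, 6.81 and 8.44 CPM in wild type and 5.002, 4.01 and 3.04 CPM in knockout lung. Of further ventricular genes, Kcne1 had 0 counts in all 7 libraries and Hey2, also found in vessels, had a log2 fold change of 0.07.

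Markers of other tissues near the heart were measured beside these genes. Of the skeletal muscle list, 13 of 20 genes were found and 9 tested, with summed levels of 12.5 to 17.4 CPM in wild type and 13.2 to 15.005 CPM in knockout libraries, a median log2 fold change of -0.12 and 0 genes called. The skeletal actin Acta1 and the fast heavy chain Myh1 stood at 0 to 0.296 CPM and 0 to 0.241 CPM. Smooth muscle markers summed to 1389 to 1767 CPM and 1199 to 1454 CPM (10 tested, 0 called, median -0.15) and had a median r of -0.15 with the heart genes.

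Adipose markers varied partly with the heart genes, with a median r of 0.71 over 6 genes. Their sum was 157 CPM in WT6, between 59.3 and 73.0 CPM in WT2, WT3 and WT4, and between 51.1 and 71.8 CPM in knockout libraries (6 of 8 tested, 0 called, median log2 fold change -1.50). Adipoq, the adipocyte hormone adiponectin, ranged from 0.383 to 2.97 CPM in 6 libraries and reached 13.5 CPM in WT6. The part of adipose tissue in the heart gene difference was not tested. Without WT6, 31 of the 34 heart genes had negative values, the median was -0.43, and 5 genes in place of 14 had an unadjusted p under 0.05. The median r was 0.43 for arterial endothelium, 0.41 for lung mesenchyme, 0.33 for mesothelium, 0.18 for 2 conduction genes and -0.25 for alveolar and airway epithelium. Taken as the mean log2 CPM of a list, r was 0.83 for arterial endothelium, 0.79 for adipose, 0.57 for the conduction genes other than Gja5, 0.53 for lung mesenchyme, 0.38 for mesothelium and -0.31 for epithelium, so that the order of the lists differed between the measures. The part of arterial endothelium in the heart gene difference was not tested. Arterial endothelium, lung mesenchyme, mesothelium, conduction and epithelium each had 0 genes called and a median log2 fold change between -0.42 (5 conduction genes, Gja5 among them) and -0.05.

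Genes with the smallest p in each of these lists did not pass the test. The log2 fold changes were -0.27 for Tnnt3, -0.47 for Atp2a1 and -0.28 for Mybpc2 among skeletal muscle genes, and -0.28 for Mylk, -0.26 for Smtn and -0.35 for Hhip among smooth muscle genes. They were -0.34 for Cxcl12, -0.15 for Efnb2 and -0.13 for Gja4 in arterial endothelium, and -0.60 for Wnt2, -0.19 for Tcf21 and -0.14 for Tbx2 in lung mesenchyme. In mesothelium the values had both signs, with 0.68 for Msln, -0.50 for Lrrn4 and -0.10 for Gpm6a. Adipose gave -0.26 for Lipe, -1.56 for Cidea and -1.57 for Plin1, and Cntn2 of the conduction genes stood at -0.42.

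**Figure D5:**
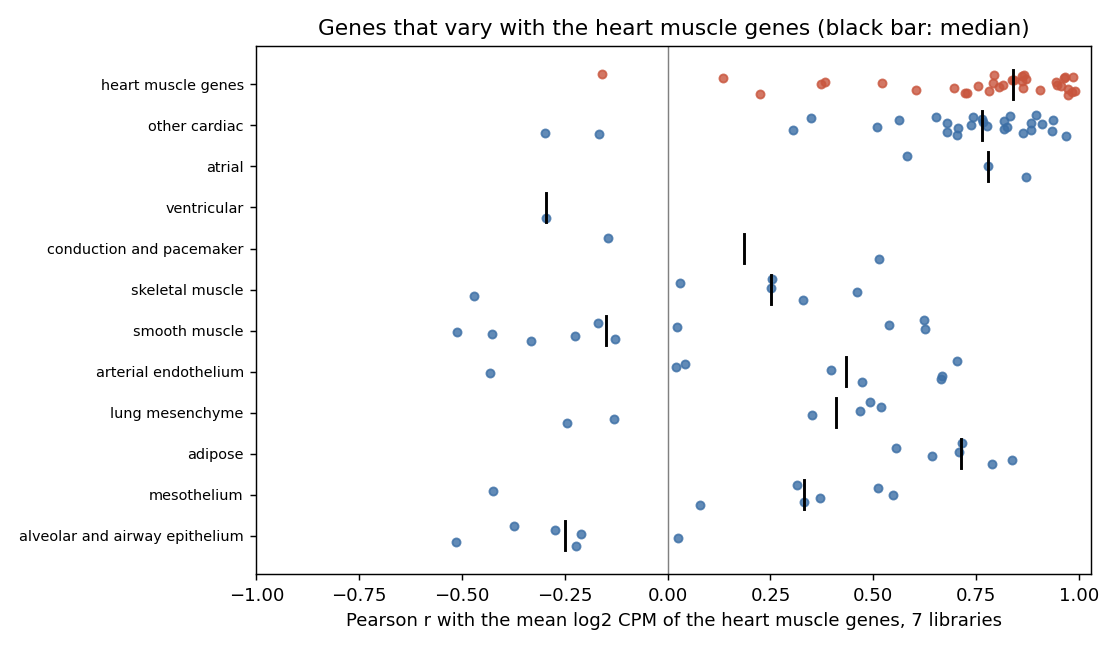
Pearson r over the 7 libraries (horizontal axis) of single genes with the mean log2 CPM of the heart muscle genes. Each point is a gene with a mean of at least 1 CPM, or in the top row 1 of the 34 heart muscle genes against the other 33, and black bars are medians. The medians are 0.84 for the heart muscle genes, 0.77 for the further cardiac genes, 0.71 for adipose and -0.15 for smooth muscle.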

How the data were processed

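The deposited values are raw read counts per gene, whole numbers that differ in total between libraries. Per the submitters' processing notes, STAR, DESeq2 and the build mm10 were used, with no version or role. The counting program, annotation and strandedness remain not given in the sources used here, and overlapping or antisense genes may share reads. Members and lists were chosen with earlier results of these data known.

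Genotypes were compared with edgeR 4.0.16 in R 4.3.3 (low-count filter by group, TMM, robust quasi-likelihood test, genotype as the only term, two-sided), adjusted by the Benjamini-Hochberg method over 19832 genes at 0.05. The script was tested on simulated data, but how often it would call differences of the size seen here is not given. Ratios of partner genes had 0.5 added to both counts and an exact permutation test over 35 assignments. The ratio Myl7/Myl2 was planned and not run. Positions and transcript lengths came from GENCODE M21 (GRCm38, the build mm10), matched by symbol for 28634 of 28828 entries, using the longest principal transcript. Promoters came from RefSeq GRCm38.p6. Log2 CPM for correlations used a prior count of 2. Genes given in full were the partner and calcium pump genes and the 8 members with the smallest p. From each other list the 3 genes with the smallest p were taken, and the 12 genes most like the members; a gene that this rule names is not reported here. Other genes (Ttn, Ankrd1, Tbx5, Gja5, Adipoq, Kcne1 and the like) were named after their values were seen. Alternatives were DESeq2 1.42.0, other scalings, no filter, a replicate block and leaving out libraries. The 2 most similar libraries, KO3 and KO4, differed with a chi-square per degree of freedom of 4.30, and all 7 were counted apart. For genes with few counts, depth limits precision: 3 counts equal 0.181 to 0.222 CPM. Genes with many counts also varied between libraries: Myh6, with 2910 to 6556 counts, had an SE of 0.26.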

Additional observations from a re-analysis of the deposited data

Results flagged for a closer look

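In the 4 wild type libraries, 9 of 48 measures had 1 library far from the other 3, by Dixon's 95% limit for the gap over the range, where chance gives about 1 in 20. The measures are not independent. WT6 was the high library for Myl1 (4.36 CPM), Pln (8.09 CPM), Smpx (3.16 CPM) and the summed adipose markers (157 CPM). WT3 was the low library for Tnni3 (19.5 CPM), Tnnt2 (35.9 CPM) and the summed further cardiac genes (533 CPM). WT4 was high for Myom1 (58.5 CPM, against 53.1 to 53.7 CPM in the other 3), and WT2 for the summed conduction genes (185 CPM).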

How the results depend on the processing

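The median log2 fold change of the heart muscle genes was negative in each alternative run, from -0.81 (without WT3) to -0.33 (replicate block). Leaving out each library in turn gave -0.81 to -0.43 for this median, 0 heart muscle genes called, and 3 to 41 genes called over the whole table. Over all genes 7 were called, 56 with DESeq2, 14 among the 5 libraries other than WT6 and KO5, 29 with a term for that pair and 140 with a replicate block. The titles share the numbers 3 and 4 only. Same-numbered libraries correlated at 0.24 and 0.20 in their deviations from the group means, and crossed ones at 0.22 and 0.24. Same-numbered libraries were thus not consistently closer than crossed ones. Whether the numbers mark a shared litter or batch cannot be told from so few pairs. With the replicate block, which leaves 1 residual degree of freedom, 3 heart muscle genes were called: Myl4 (-0.62, edgeR adjusted p = 0.00303), Myl7 (-0.61, 0.00487) and Mb (-0.61, 0.0378). The range of edgeR's and DESeq2's adjusted p over all alternatives reached 0.9999 or above for each of these 3. Leaving out single libraries turned the sign of Myh7 (-0.059 to 0.17), Pln (-0.29 to 0.12), and the log2 ratios Myl4/Myl3 (-0.60 to 0.28) and Nppa/Nppb (-0.90 to 0.51). The cause was not tested. Myh6/Myh7 stayed between -0.84 and -0.45. Depth limits Nppb, Nkx2-5, Nppa and Myl3 most, at 0 to 41 counts per library.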

Other observations

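WT6 also held transcripts of brown fat. Ucp1, the uncoupling protein of brown adipocytes, had 9.28 CPM in WT6, 1.16 CPM in KO5 and 0 to 0.135 CPM in the other 5 libraries, and Cidea, a lipid droplet protein of the same cells, had 6.19, 1.30 and 0.338 to 0.740 CPM. Pck1, which serves glycerol synthesis in fat, had 45.9 CPM in WT6, 11.3 CPM in KO5 and 0.573 to 2.77 CPM elsewhere. The heart muscle genes summed to 2847 CPM in WT6, the highest of the 7 libraries, against 1412 CPM in WT3. Their sum in KO5, 1654 CPM, was the highest of the knockout libraries. The mean log2 CPM of the 34 tested genes was nearly the same in KO5 (3.664) and KO3 (3.657). KO5 was the lowest of the 7 libraries for 10 of these 34 genes. The part of brown fat in the heart gene values was not tested.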
